A study of Mus musculus with 4 samples.

Results

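The 10 goblet cell and mucus genes described here are Muc2, Muc13, Tff3, Fcgbp, Clca1, Zg16, Agr2, Spink4, Spdef and Atoh1, chosen by symbol from a list of genes of intestinal mucus and of the secretory cells that make it. All 10 are listed in both deposited tables, out of 25522 genes in the table without and 26085 genes in the table with tetracycline, and all 10 carry an adjusted p-value in both. The study measured RNA in small-intestinal crypts, the pits of the gut lining that hold its stem cells, from male C57BL/6J mice aged 9 weeks. The 4 groups were fed and fasted mice that received no tetracycline, and fed and fasted mice that received this antibiotic for 21 days, with fasting lasting 24 hours. The series' design text names the question as the effect of the loss of AKK under tetracycline on fed and fasted mice, and it does not spell out the abbreviation. The deposited tables are the authors' own comparisons of fasted with fed mice, 1 without and 1 with tetracycline, with no column that names the direction. The name of 1 table holds the word Tetra, and the other table was read as the comparison without tetracycline. The word order of the table names was taken to mean fasted relative to fed, and every direction given for fasting, as well as which libraries are called fed and which fasted, rests on that reading.

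The labels list 1 sample per group, while the arithmetic of each table shows 4 libraries, 2 on the fasted and 2 on the fed side. Whole counts behind the deposited values were recovered for each member in each library, and the libraries cannot be tied to labelled samples or to single animals. The p-values therefore rest on a spread between libraries that may be technical. The tests used below also draw each gene's error partly from other genes, so a p-value does not measure that gene's own spread alone. Libraries of a side were numbered by falling size factor, and the numbers pair nothing. Recovered counts summed to between 47498740 and 65277999 per library. Values given below as normalized counts are counts divided by the authors' size factor, and the 2 tables were scaled separately.

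Goblet cells are secretory cells of the gut epithelium that store and release mucus. ATOH1 is the transcription factor that commits crypt progenitors to the secretory lineages when Notch signalling is low, and SPDEF acts after it to mature goblet and Paneth cells. AGR2 is a protein disulphide isomerase of the endoplasmic reticulum needed for the making of MUC2, the gel-forming mucin that gives intestinal mucus its scaffold. FCGBP, CLCA1 and ZG16 are secreted into that gel. TFF3, a trefoil peptide of epithelial repair, and SPINK4, a small protein of the protease-inhibitor class, are released with it, while MUC13 is a mucin anchored in the membrane of epithelial cells at large. In bulk crypt RNA, fewer goblet cells and less RNA per goblet cell cannot be told apart.

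Agr2 was the only member that passed the authors' test. Atoh1 and Spdef were flagged by the order of their libraries described below, though neither passed a test. The 250 bases before the RefSeq start of Agr2, Atoh1 and Spdef are shown. They are credited to RefSeq on GRCm38.p6, the build that mm10 of the submitters' processing notes also denotes, and run 5′ to 3′ on the strand of the gene. The Agr2 stretch lies at chr12:35992675-35992924 on the plus strand, that of Atoh1 at chr6:64728875-64729124 on the plus strand, and that of Spdef at chr17:27728952-27729201 on the minus strand. The GENCODE M21 gene models begin further upstream for Agr2, at 35992907, and for Spdef, at 27728955, so the last bases of those stretches lie inside these models. Capitals mark the only match among 4 motifs searched on both strands.
Agr2: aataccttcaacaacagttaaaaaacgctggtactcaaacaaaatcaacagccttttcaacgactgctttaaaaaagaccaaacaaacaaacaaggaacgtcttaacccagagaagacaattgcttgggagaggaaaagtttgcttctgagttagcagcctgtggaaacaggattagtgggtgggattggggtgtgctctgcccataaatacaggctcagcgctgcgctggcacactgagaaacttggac
Atoh1: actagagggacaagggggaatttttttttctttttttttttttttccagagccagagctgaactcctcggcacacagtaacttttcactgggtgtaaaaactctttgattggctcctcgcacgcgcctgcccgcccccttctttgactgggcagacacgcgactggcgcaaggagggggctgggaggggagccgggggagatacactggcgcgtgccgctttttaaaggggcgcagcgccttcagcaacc
Spdef: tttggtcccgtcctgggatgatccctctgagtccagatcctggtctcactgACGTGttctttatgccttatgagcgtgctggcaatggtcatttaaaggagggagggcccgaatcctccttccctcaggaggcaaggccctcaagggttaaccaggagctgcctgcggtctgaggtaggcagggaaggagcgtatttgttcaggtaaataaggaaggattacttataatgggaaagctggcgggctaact
One motif was the E-box CAGCTG. A second E-box was searched as CAGATG. The core of unfolded-protein-response elements was searched as ACGTG, and the TATA box as TATAAA. Spdef held ACGTG, beginning 199 bases before its start, a motif found in 16.6% of the 32851 promoter stretches of that length. Agr2 and Atoh1 held none of the 4. Of the other members in the promoter table, Muc2 held CAGCTG and TATAAA, Fcgbp held CAGCTG and Muc13 held CAGATG in 1 of its 2 entries, and these motifs occur in 13.0% (CAGCTG), 14.4% (CAGATG) and 12.4% (TATAAA) of all stretches. Tff3, Clca1, Zg16 and Spink4 were not analysed here for promoter sequence.

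In the authors' DESeq2 test, fasting without tetracycline was followed by a lower level of 1 of the 10 members, Agr2, and by no member at a higher level that passed. Limma on the recovered libraries called 0 members and 0 of 16988 genes in the same comparison, with 1 member, Agr2, and 6.84% of those genes at an unadjusted p under 0.05. The background is that 2.27% of the 18100 genes with an adjusted p passed it, 1.22% downward and 1.06% upward. An unadjusted p under 0.05 was found in 3 members, Agr2, Spink4 and Muc13, beside 10.8% of all genes. The median log2 change of the 10 members was -0.26, against 0.0067 over all genes tested, with 7 members at a negative and 3 at a positive value. Without fed library 2 this median was 0.013, and without fasted library 2 it was -0.10. With tetracycline, 0 of the 10 members passed the authors' DESeq2 test, 0 had an unadjusted p under 0.05, and limma on the recovered libraries also called 0, with 2, Spdef and Atoh1, at an unadjusted p under 0.05, beside 7.06% of genes, and 0 to 2 with 1 library left out. The background there is 0.6% of 17993 genes with an adjusted p under 0.05 and 5.34% with an unadjusted p under it. The median log2 change with tetracycline was 0.29, against -0.018 over all genes tested, with 8 members at a positive and 2 at a negative value. The pan-epithelial markers, 10 genes such as Epcam and Krt8 that every epithelial cell type uses, had a median of 0.33 in that table and none of them passed. Relative to their median, that of the members was -0.044, and Muc2, Muc13 and Spink4 turned from a positive to a negative value. Without fed library 2 the members' median was 0.61, and without fed library 1 it was 0.025.

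**Figure D1:**
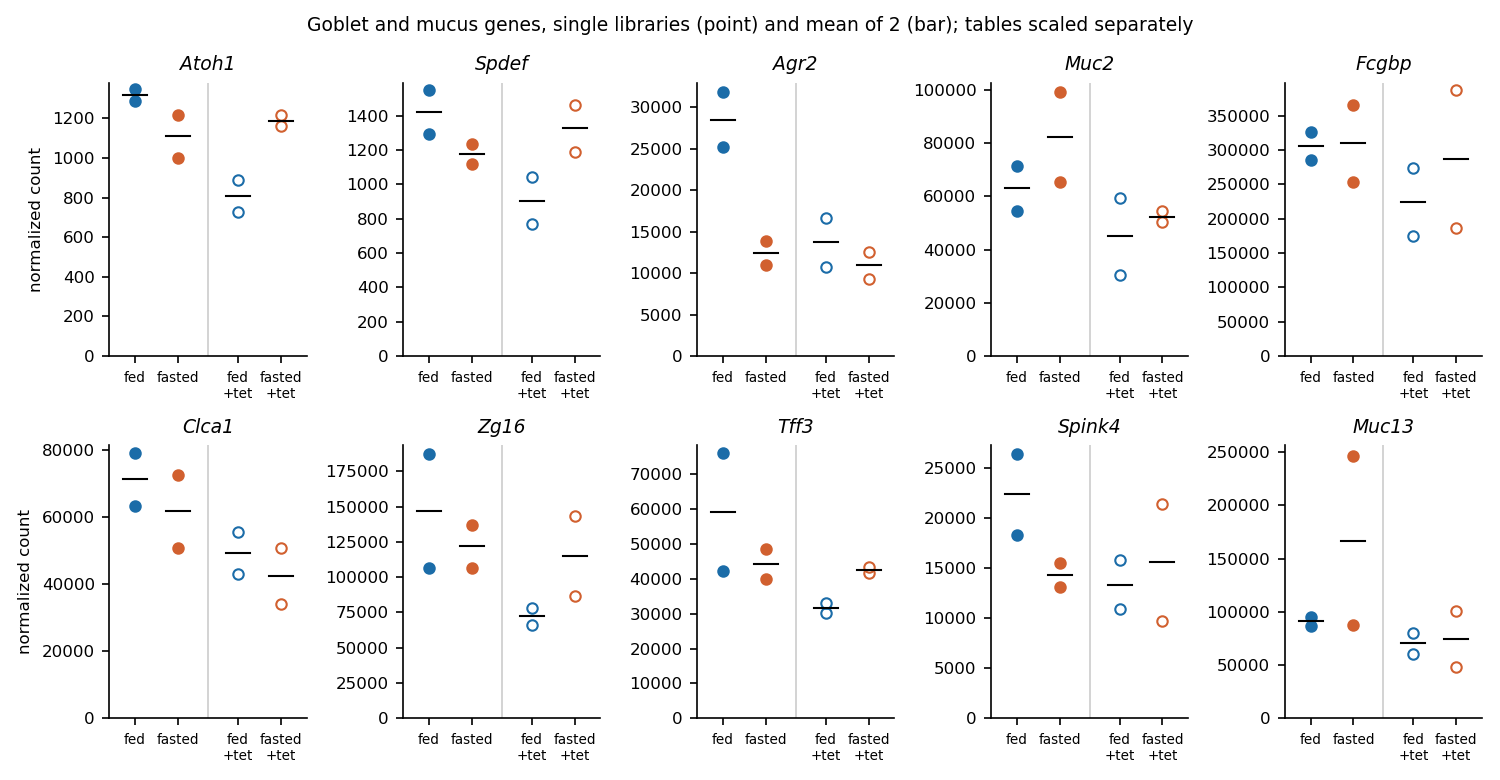
Normalized counts (vertical axes, from 0) of the 10 genes in each recovered library, fed in blue and fasted in orange, without (filled) and with tetracycline (open), with a bar at the mean of 2. Agr2 without tetracycline shows both fasted points, at 10918 and 13825 counts, under both fed points, at 25188 and 31788.

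Agr2, the folding enzyme, had normalized counts of 25188 and 31788 in the fed and of 10918 and 13825 in the fasted libraries without tetracycline. Both fasted libraries lay well below both fed ones. In the authors' deposited table the log2 change was -1.20 (SE 0.27), a 2.30-fold lower level with a DESeq2 adjusted p of 0.00121. The 95% interval of that log2 change ran from -1.74 to -0.67. The call was not made by limma on the recovered libraries, at a log2 change of -1.19 (SE 0.31) and an adjusted p of 0.579, nor in any limma fit that left out 1 library. Refitted with the dispersion behind the deposited SE, the adjusted p was 0.117 without fasted library 1 and 0.135 without fed library 2, while it stayed at 0.00455 and 0.00409 without fasted library 2 and fed library 1. With tetracycline, Agr2 stood at 10729 and 16686 in the fed and 12569 and 9287 in the fasted libraries, which overlap. All 4 libraries with tetracycline thus had counts below the lower fed library without it. The authors' table gave a log2 change of -0.33 (SE 0.43) with a DESeq2 adjusted p of 0.9999.

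Atoh1, the fate-setting factor, had normalized counts of 1287 and 1347 in the fed and 1219 and 998 in the fasted libraries without tetracycline. With tetracycline it had 726 and 888 in the fed and 1160 and 1216 in the fasted libraries. The fasted libraries thus lay below the fed ones without and above them with tetracycline. Neither change passed the authors' test, at log2 changes of -0.25 (SE 0.27) and 0.56 (SE 0.38).

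Spdef, the goblet maturation factor, had the same order of libraries. Its normalized counts without tetracycline were 1295 and 1551 fed and 1117 and 1237 fasted. With tetracycline they were 770 and 1041 fed and 1464 and 1187 fasted. The log2 changes in the authors' tables were -0.27 (SE 0.27) and 0.55 (SE 0.41), and neither passed the test. An order of libraries that is fasted below fed without and fasted above fed with tetracycline occurred in 1.28% of 17531 genes with whole counts in all 8 libraries. Atoh1 and Spdef were the only members with it.

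Muc2, the gel-forming mucin, had normalized counts of 71572 and 54664 fed and 99123 and 65479 fasted without tetracycline. With tetracycline it had 30382 and 59530 fed and 50501 and 54313 fasted. In both tables the fasted and the fed libraries overlapped. The log2 changes were 0.38 (SE 0.30) without and 0.22 (SE 0.47) with tetracycline, and the 95% intervals, -0.21 to 0.97 and -0.69 to 1.13, span 0. By distance over the 2 log2 changes, the 5 genes nearest to Muc2 among 9193 others with a mean of at least 500 in both tables were Epb41l3, Fam53b, Myo7b, Sgsm2 and AI661453, at 0.00653 to 0.0214 log2 units. As many as 1354 genes lay within the SE of Muc2, so this nearness is not a distinguishing property.

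Fcgbp had the highest mean of the 10, rank 14 of all genes without and rank 17 with tetracycline. Its counts were 286027 and 326053 fed and 366192 and 252879 fasted without tetracycline, and 175249 and 273115 fed and 187007 and 386939 fasted with it. The 2 fasted libraries with tetracycline differed by 2.07-fold, and fasted and fed libraries overlapped in both tables. The log2 changes were 0.016 (SE 0.28) and 0.36 (SE 0.51).

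Clca1, a metalloprotease-like protein of the mucus gel, had 63318 and 79073 counts fed and 72516 and 50708 fasted without tetracycline, and 42866 and 55406 fed and 33968 and 50623 fasted with it. It was the member with the nearest to equal changes in the 2 tables, -0.21 (SE 0.29) without and -0.22 (SE 0.42) with tetracycline on the log2 scale. Neither passed the test, and the 95% interval of their difference, -0.999 to 0.984, is wide on either side of 0.

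Zg16, a lectin that binds Gram-positive bacteria in the mucus, had 106203 and 187427 counts fed and 137245 and 106369 fasted without tetracycline. With tetracycline it had 66092 and 78216 fed and 86587 and 143367 fasted. The fasted libraries overlapped the fed ones without and lay above them with tetracycline. The log2 changes were -0.27 (SE 0.33) and 0.67 (SE 0.43), the latter with an unadjusted p of 0.118 and an adjusted p of 0.9999 in the authors' DESeq2 table. Per kilobase of its longest coding transcript in GENCODE M21, 723 bases, Zg16 had the highest level of the 9 members that could be scaled by length, 203100 normalized counts per kilobase in fed crypts without tetracycline, followed by Tff3 at 120100 on the same scale. Atoh1 was lowest at 621. Muc2 was left out of this scale because its longest coding model there spans only 2926 bases. Zg16 overlaps Gm44939 and Gm22747, and Muc13 overlaps Gm15657, each on the opposite strand. The libraries did not keep the strand, so the levels of Zg16 and Muc13 are uncertain to that extent.

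Tff3 had 42312 and 76105 counts fed and 48478 and 40045 fasted without tetracycline, with overlap. With tetracycline it had 30260 and 33056 fed and 41740 and 43484 fasted, the fasted libraries above the fed ones and the libraries of a side within 1.09-fold of each other. The log2 changes were -0.42 (SE 0.33) and 0.43 (SE 0.35), and neither passed the test.

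Spink4 had 18291 and 26394 counts fed and 13073 and 15482 fasted without tetracycline, the fasted libraries below the fed ones. Its log2 change there was -0.65 (SE 0.29), with an unadjusted p of 0.0235 and an adjusted p of 0.323 in the authors' DESeq2 table. With tetracycline it had 10861 and 15770 fed and 21415 and 9679 fasted, the fasted libraries being 2.21-fold apart and on both sides of the fed ones. The log2 change there was 0.22 (SE 0.52).

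Muc13, the membrane mucin, had 86682 and 95271 counts fed and 246519 and 87177 fasted without tetracycline. Its log2 change of 0.87 (SE 0.41), the highest of the 10, came with an unadjusted p of 0.0327 and an adjusted p of 0.378 in the authors' DESeq2 table. Fasted library 1 alone was high. Without it the log2 ratio of means was -0.062. With tetracycline Muc13 had 60666 and 80412 fed and 48514 and 100378 fasted, and a log2 change of 0.078 (SE 0.49).

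Over the 10 members, both fasted libraries lay below both fed ones in 4 without tetracycline (Agr2, Spink4, Spdef and Atoh1), beside 22.9% of all genes with whole counts, and above them in 0, beside 21.7%. With tetracycline both fasted libraries lay above both fed ones in 4 (Tff3, Zg16, Spdef and Atoh1), beside 16.0% of genes, and below them in 0, beside 15.5%. In 5 of the 10 members without and in 4 with tetracycline the sign of the change was the same whichever library was left out. Those without were Muc2, Agr2, Spink4, Spdef and Atoh1, and those with were Tff3, Zg16, Spdef and Atoh1. Where fasted and fed libraries do not overlap, that sign is fixed in advance, so it adds nothing to the orders just given. Only Muc2 without tetracycline kept its sign with overlapping libraries. The share of all genes that kept their sign was not counted.

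**Figure D2:**
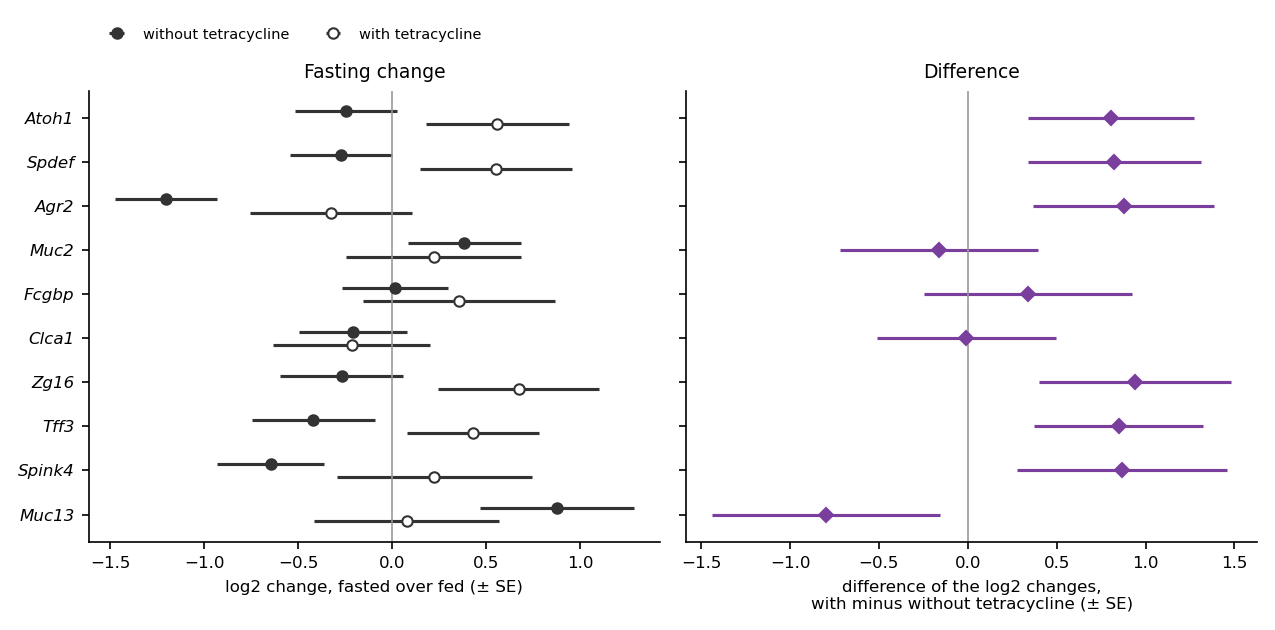
Left, the authors' log2 changes of fasted over fed with SE (horizontal axis) for each gene without (filled) and with tetracycline (open); right, the change with minus the change without tetracycline, with the SE of the difference. Of the 10 differences, 6 lie between 0.81 and 0.94, while Muc13 lies at -0.80 and Clca1 at -0.0077.

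The fasting change with tetracycline minus that without was tested for each gene by a Wald test over 17571 genes, of which 4 passed (0.0228%). None of the 10 members passed, their adjusted p being 1.0 throughout, and 0 had an unadjusted p under 0.05, beside 1.05% of all genes. By limma on the recovered libraries 0 members passed and 2, Spdef and Atoh1, had an unadjusted p under 0.05 and an adjusted p of 0.9999, beside 1.23% of genes with such an unadjusted p. That count of 2 was 0 without fasted library 2 or fed library 2 of the table without tetracycline or fed library 1 of the table with it, and 4 without fasted library 2 of the latter. The difference was positive in 7 members and its median was 0.82, against 0.0003 over all genes. Without fed library 2 of the table without tetracycline this median was 0.42. It was 0.85 (SE 0.48) for Tff3, 0.94 (SE 0.54) for Zg16, 0.88 (SE 0.51) for Agr2, 0.87 (SE 0.59) for Spink4, 0.82 (SE 0.49) for Spdef and 0.81 (SE 0.47) for Atoh1. The remaining positive value was that of Fcgbp, 0.34 (SE 0.58). Muc2 stood at -0.16 (SE 0.55), Clca1 at -0.0077 (SE 0.51) and Muc13 at -0.80 (SE 0.64). The smallest unadjusted p was 0.0756, for Tff3, with a 95% interval from -0.087 to 1.78. The pan-epithelial markers had a median difference of 0.43. Relative to that list's change in each table, the members' median difference was 0.46. Markers of enteroendocrine cells, hormone-making cells of the same secretory lineage, had a positive difference in 17 of 17 genes with a median of 0.42, of which 0 passed the Wald test and 1 had an unadjusted p under 0.05. Their median fasting change was -0.18 without tetracycline, with 14 of 17 at a negative value and 1 passing, and 0.26 with it, with 12 of 17 at a positive value and 0 passing. The part of these lists in the members' differences was not tested.

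Levels with and without tetracycline cross separately scaled tables, so they were centred on the median log2 ratio of all genes, 0.060 for fed and 0.064 for fasted crypts. In fed crypts all 10 members had a lower level with tetracycline, by a median log2 ratio of -0.74 and from -1.12 (Agr2) to -0.43 (Muc13). Agr2 was 2.17-fold, Zg16 2.12-fold, Tff3 1.95-fold, Spink4 1.75-fold, Atoh1 1.70-fold, Spdef 1.64-fold and Muc2 1.46-fold lower. In the counts as scaled by the authors, 9 members had both fed libraries with tetracycline below both without it, beside 14.9% of all genes, and Muc2 overlapped. In fasted crypts the median was -0.16, with 7 members lower and 3 (Spink4, Spdef and Atoh1) higher. Relative to the pan-epithelial markers this median was -0.071, and by limma it ran from -0.35 to -0.090 over the libraries left out. There 2 members, Muc2 and Clca1, had both libraries with tetracycline below both without it, beside 6.34% of genes. Muc13 had the lowest fasted value, -1.23, with fasted library 1 without tetracycline at 246519 counts against 87177 in fasted library 2.

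**Figure D3:**
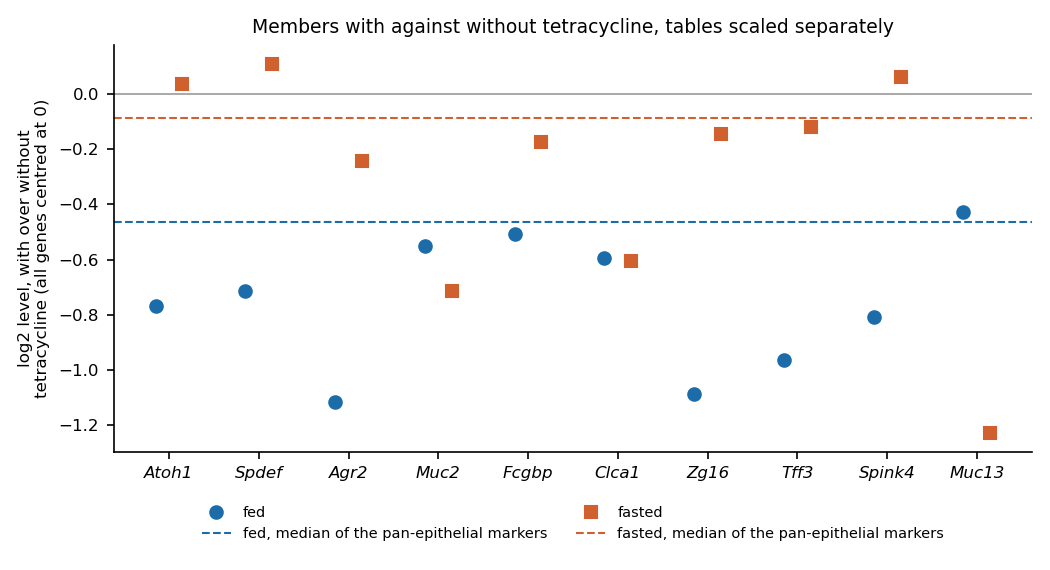
Log2 level with over without tetracycline (vertical axis, all genes centred at 0) of each gene in fed (blue circles) and fasted crypts (orange squares), with dashed lines at the median of the pan-epithelial markers. All fed values lie below 0, and 9 of 10 lie below the fed epithelial line at -0.47, the exception being Muc13.

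When the 8 recovered libraries were scaled together and fitted with limma, 0 members passed the test of fed crypts with against without tetracycline, with adjusted p of 1, and 1 of 16988 genes did (0.00589%). All 10 members had a negative value in this fit, with a median of -0.74. Unadjusted p-values from limma were under 0.05 for 4 members, at log2 changes of -1.13 (SE 0.31) for Agr2, -0.89 (SE 0.36) for Tff3, -0.71 (SE 0.23) for Spdef and -0.76 (SE 0.20) for Atoh1. Negative values with an unadjusted p under 0.05 were found in 0.848% of all genes there. The count of 4 members was 1 without fed library 2 of the table without or fed library 1 of the table with tetracycline, and 6 without either fasted library of the latter. The pan-epithelial markers were also lower with tetracycline in fed crypts, by a median of -0.47. Relative to them the members' median was -0.27, 9 of 10 were lower and Muc13 stood at 0.039. Lymphocyte markers summed to 62775 and 16436 normalized counts in the fed libraries with and to 15367 and 20400 in those without tetracycline, with no marker of the list at 0 in any library. The part of these lists in the fed difference was not tested.

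The make-up of the libraries differed, also between libraries of 1 side. Markers of enterocytes, the absorptive cells, summed to 2100741 and 997396 normalized counts in fasted libraries 1 and 2 without tetracycline and to 871522 and 1205991 in the fed ones. With tetracycline they summed to 595959 and 2362737 fasted and 882878 and 923945 fed. These enterocyte sums cover only the 12 of 14 markers whose whole counts were recovered in each table. The order of libraries by them is therefore that of a part of the list. Markers of Paneth cells, the antimicrobial cells of the crypt base, had sums of 802145 and 1012139 fasted and 523703 and 454636 fed without tetracycline, and 1820000 and 337982 fasted and 427906 and 569574 fed with it. The fasted pair with tetracycline thus differed most in both lists, in opposite directions. Within all 4 pairs of libraries of 1 side, Muc13, Tff3, Fcgbp, Clca1, Zg16 and Atoh1 were higher in the library with the higher enterocyte sum. Muc2 was so in 3 pairs, and Agr2, Spink4 and Spdef in 2. The latter 3 were higher with the higher Paneth sum in 3 of 4 pairs. The share of all genes with such orders was not counted, so these orders are not read as particular to the members. Of the Paneth markers 15 of 15, and of the enterocyte markers 12 of 14, had a higher value after fasting in each table. Of the Paneth markers 8 passed without and 0 with tetracycline, and of the enterocyte markers 2 and 0. Among the markers with recovered counts, none of either list was at 0 in a library. Lymphocyte markers had a lower value after fasting in 12 of 12 genes in each table, with 6 passing without and 0 with tetracycline, at medians of -1.47 and -1.68. Myeloid markers did so in 12 of 12, with 3 and 1 passing, at medians of -1.10 and -1.63. Proliferation markers did so in 12 of 12, with 0 passing in either table, at medians of -0.64 and -0.50. The part of these lists in the members' values was not tested.

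**Figure D4:**
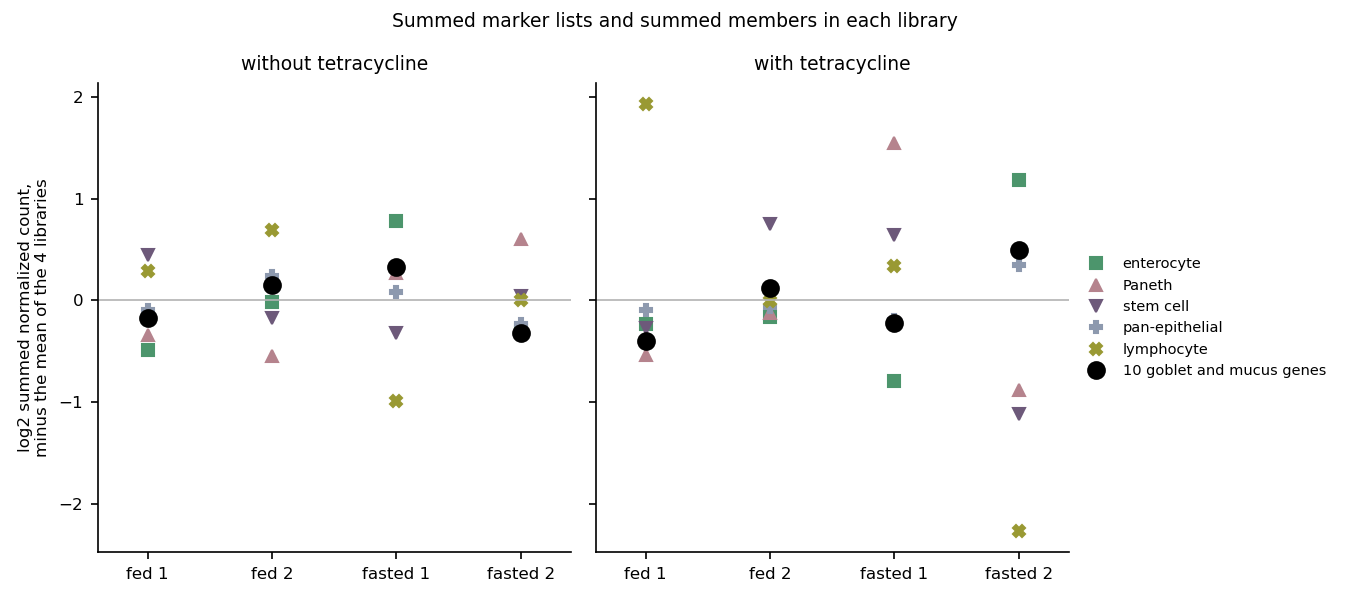
Log2 of the summed normalized counts of 5 marker lists and of the 10 genes, minus the mean of the table's 4 libraries (vertical axis), in each library without and with tetracycline. The members' sum (black) ranged from 634197 to 996400 without and from 428602 to 800473 with tetracycline, and in each table was highest in the library with the highest enterocyte sum. The enterocyte sum covers the 12 of 14 markers with recovered counts.

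The genes that surround the members were read in 6 lists, each gene counted where the authors' table gave an adjusted p and called by the authors' test. Limma on the recovered libraries called 0 of the 7 list genes named here (Fut4, Gsdmc2, Gsdmc3, Gsdmc4, Ang4, Best2 and Muc5ac) in either table, and 0 of 16988 genes without and 2 with tetracycline in all, so none of these calls was made by both tests. Among secretory fate factors and Notch genes 0 of 24 without and 0 of 23 with tetracycline passed, at medians of 0.098 and 0.085. Among genes of endoplasmic reticulum folding and mucin packaging 0 of 26 passed in either table, and the medians were -0.0095 without and 0.34 with tetracycline, where 22 of 26 were positive beside the pan-epithelial median of 0.33 in that table. Of the enzymes that build mucin O-glycans 1 of 30 passed without and 0 of 30 with tetracycline, at medians of 0.14 and 0.19. The 1 was Fut4, a fucosyltransferase, with 2019 and 2072 counts fed and 4378 and 3501 fasted without tetracycline, and a log2 change of 0.95 (SE 0.26, DESeq2 adjusted p 0.0192). Under tetracycline Fut4 had 2184 and 2634 fed and 2492 and 7216 fasted, and a log2 change of 1.01 (SE 0.57, DESeq2 adjusted p 0.9999).

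Among other goblet products and markers 4 of 20 passed without tetracycline, 1 higher and 3 lower, and 4 of 19 with it, also 1 higher and 3 lower, at medians of -0.029 and 0.47. The 3 lower ones were in both tables Gsdmc4, Gsdmc3 and Gsdmc2, gasdermins, a family of pore-forming proteins rather than components of mucus. Gsdmc4 had 2989 and 2444 counts fed and 416 and 271 fasted without, and 1347 and 1326 fed and 93.8 and 24.8 fasted with tetracycline. Its log2 changes were -2.98 (SE 0.31, DESeq2 adjusted p 1.15e-18) and -4.47 (SE 0.63, DESeq2 adjusted p 2.25e-09). Gsdmc2 changed by -2.19 and -3.21 and Gsdmc3 by -2.77 and -3.16. These 3 genes are close paralogs that can share reads, so their separate values are uncertain. Ang4, an antimicrobial ribonuclease made by Paneth and goblet cells, rose without tetracycline from 9383 and 7985 counts fed to 21679 and 20528 fasted, a log2 change of 1.28 (SE 0.25, DESeq2 adjusted p 6.25e-05). Under tetracycline Ang4 had 7091 and 11659 fed and 43251 and 6254 fasted, so that the fasted libraries lay on both sides of the fed ones, and a log2 change of 1.40 (SE 0.78, DESeq2 adjusted p 0.9999). The Paneth sum given above was also higher in both fasted libraries without tetracycline, and with tetracycline it was higher in fasted library 1 alone, as Ang4 was. Its part in the Ang4 values was not tested.

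Best2, a chloride channel of goblet cells that also stands in the list of release and hydration genes, was the 1 of 22 of that list to pass with tetracycline, where it had 1 and 0 raw counts fed and 109 and 21 fasted (DESeq2 adjusted p 0.00802). Without tetracycline 0 of 22 passed, and Best2 had 2 and 0 raw counts fed and 15 and 16 fasted.

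Among other mucins 0 of 7 passed without and 1 of 7 with tetracycline, at medians of 0.50 and -0.54. The 1 was Muc5ac, the gel-forming mucin of the stomach surface, with 103 and 1049 normalized counts fed and 1.65 and 16.5 fasted (log2 change -6.05, SE 1.10, DESeq2 adjusted p 2.96e-05). Without tetracycline it had 2.98 and 12.1 fed and 0.917 and 105 fasted, and a log2 change of 2.82 (SE 2.29, DESeq2 adjusted p 0.765). In the gastric list with tetracycline both fasted libraries lay below both fed ones in 4 of 8 genes, Muc5ac, Tff1, Gkn1 and Gkn2, and not in Muc6, Gkn3, Pgc and Atp4a, while without tetracycline they did so in 0 of 8. With tetracycline Tff1 had 732 and 2470 fed and 0.823 and 37.1 fasted, and Gkn2 had 739 and 3089 fed and 0 and 55.0 fasted, though neither passed. Gkn3, with 521 and 772 fed and 1171 and 349 fasted, was among those without that order in the same table. The gastric list, which holds Muc5ac itself and 8 of whose 10 genes were listed, summed to 3028 and 9711 fed and 1674 and 619 fasted with tetracycline and to 1241 and 1289 fed and 670 and 2095 fasted without it, and its part in the Muc5ac value was not tested. Muc3, a membrane mucin and the most abundant of this list by mean, had 55485 and 57070 counts fed and 184124 and 62022 fasted without tetracycline. As for Muc13, fasted library 1 was the high one, and the log2 change of 1.13 (SE 0.42) had a DESeq2 adjusted p of 0.162.

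**Figure D5:**
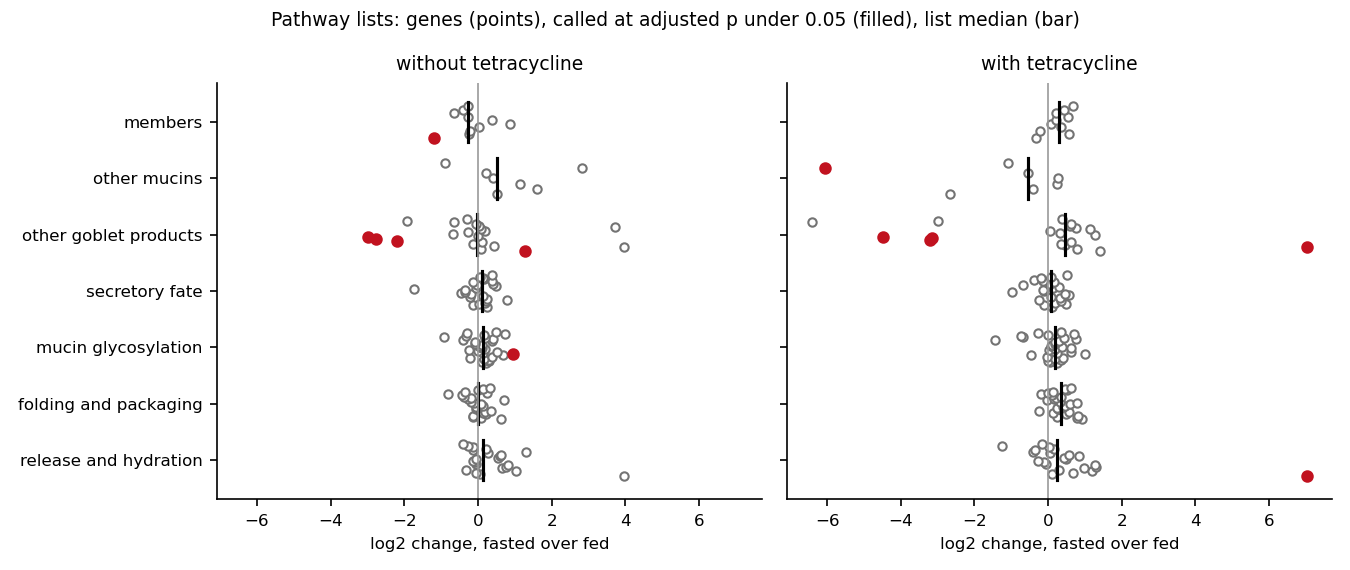
Log2 changes of fasted over fed (horizontal axis) of the members and of 6 lists of related genes, without and with tetracycline; each point is a gene, red where the authors' adjusted p is under 0.05, and the bar is the list's median. The members' bar lies at -0.26 without and 0.29 with tetracycline, and Agr2 is their only red point.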

How the data were processed

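Crypt RNA was sequenced by the authors from a kit without strand information, per the labels' protocols, and the submitters' processing notes name Salmon, DESeq2 and mm10 without versions. The authors deposited, per the file headers, for each gene a mean (a signal: counts over size factors, averaged), a log2 fold change with its SE, a test statistic (a score: fold change over SE) and p-values, raw and adjusted by Benjamini-Hochberg. No column states the direction. The refit that gave the deposited fold changes had the positive side as its reference level, which alphabetical order would give to "fast" before "fed". No result for the other level is given here, so the direction still rests on the table names. The tables hold 0 unused per-sample columns. Of the gene identifiers, 99.1% matched GENCODE M21 without the version. The authors' adjusted p under 0.05 is the call.

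Whole counts were recovered from the means to 15 digits, and the nearest set was kept where a negative binomial refit gave the deposited fold change. Such a set was found for 80.6% of genes without and 80.2% with tetracycline. Kept sets were off by at most 3.73e-14, and the next-best sets by at least 6.66e-11. Low genes were read from the mean alone, and 96.5% and 99.7% of genes were decoded in all. Size factors differed by up to 1.17-fold and 1.75-fold. Deposited means of the members lay between 998 and 307788. On simulated data 200 of 200 genes were recovered. In fold changes simulated from the deposited SEs, the Wald test called 37 of 100 genes with a log2 difference of 2 and 83 of 100 with 4. In counts simulated separately, with the same dispersion for every gene, limma called 69 of 100 and 100 of 100 genes with these differences. The settings differ, so these counts do not compare the tests.

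The difference of the changes was tested by a two-sided Wald test. Levels with against without tetracycline used group means rebuilt from mean and fold change, with a pseudocount of 1 and genes with a mean of at least 1. Tools were Python 3.11.15, numpy 2.4.6, scipy 1.17.1, R 4.3.3 and limma 3.58.1. The design had assumed values per library. As the tables hold comparisons, the authors' own test took its place. Members and lists were chosen with earlier results of these data known. All 10 members were described. Beside them, called genes of each list were named, up to 4 by smallest adjusted p, and Muc3, Tff1, Gkn2 and Gkn3 after their values were seen.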

Additional observations from a re-analysis of the deposited data

Results flagged for a closer look

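Spdef and Atoh1 were singled out because both fasted libraries lay below both fed ones without tetracycline and above both fed ones with it. The change with minus the change without tetracycline was 0.8247 on the log2 scale for Spdef and 0.8072 for Atoh1. Neither difference passed: the Wald test gave unadjusted p of 0.0907 for Spdef and 0.0835 for Atoh1 with adjusted p of 1.0, and limma on the recovered libraries gave 0.0384 and 0.0232 with adjusted p of 0.9999. Over the libraries left out, the limma difference ran from 0.60 to 1.03 for Spdef and from 0.67 to 0.95 for Atoh1. The unadjusted limma values of both genes thus depend on which libraries are included. That order of libraries was found in 1.28% of all genes. Relative to the pan-epithelial markers, the fasting changes were -0.26 and 0.22 for Spdef and -0.23 and 0.23 for Atoh1, so their signs were the same.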

How the results depend on the processing

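The count of members called after fasting was 1 without and 0 with tetracycline at adjusted p limits of 0.01 and 0.1, without the filter on low means, and with a mean of at least 50. By limma, an alternative chosen after seeing the data like every one that leaves out a library for counts and medians, the count without tetracycline was 0, and Agr2 had -1.19 (SE 0.31, adjusted p 0.579). Left out 1 at a time, the libraries gave a count of 0 to 1 without and 0 with tetracycline in the negative binomial refit, and 0 in limma. The median change without tetracycline ran from -0.43 to 0.013 over the libraries left out, the highest without fed library 2. With tetracycline it ran from 0.025 to 0.61, and centred on the pan-epithelial markers it was -0.044, with 7 of 10 members keeping their sign. The median difference ran from 0.42 to 0.94 over the libraries left out, and was 0.46 when so centred. The fed median with over without tetracycline was -0.27 on that centring and ran from -0.94 to -0.52 by limma over the libraries left out. In fasted crypts it ran from -0.35 to -0.090. Where a value moved beyond the spread between libraries, the cause was not tested. No paired analysis was possible because the labels list 1 sample per group and the recovered libraries carry no numbers. The lowest of the members, Atoh1 with tetracycline, had a mean of 998 counts.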
